A study of Mus musculus with 18 samples.

Results

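The 9 genes described here encode proteins of the synaptic vesicle and of the SNARE machinery that fuses it with the plasma membrane: synaptophysin (Syp), the synaptotagmins Syt1, Syt4 and Syt11, the plasma membrane SNARE Snap25, the synapsins Syn1 and Syn2, the vesicle SNARE Vamp2 and the small GTPase Rab3a. They were chosen by name, with earlier results of these data known. Every probe whose symbol in the annotation of the array equals one of these names was taken. All 9 of 9 were represented, by 18 probes, among the 30869 gene symbols and 45281 probes of the Illumina MouseWG-6 v2 array. RefSeq genes of build GRCm38.p6, matched by accession or symbol, place Syp and Syn1 on chromosome X, Snap25 on chromosome 2, Syt11 on chromosome 3, Syn2 on chromosome 6, Rab3a on chromosome 8, Syt1 on chromosome 10, Vamp2 on chromosome 11 and Syt4 on chromosome 18.

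The cells were murine ESD3, a D3 embryonic stem cell line of strain 129s2/SvPas grown on a feeder layer of mouse embryo fibroblasts. Control cells expressed an shRNA against luciferase and HPRT-knockdown cells an shRNA against hypoxanthine guanine phosphoribosyltransferase, the purine salvage enzyme that is deficient in Lesch Nyhan Disease. The shRNA vectors are called retroviral in the sample labels and lentiviral in the methods, and transduced cells were selected with puromycin. RNA was taken at the embryonic (ES) stage, as spherical neural masses (SNM) and after dopaminergic neuronal differentiation, which gave 6 conditions with 3 arrays each and 18 arrays in all. The RNA of a condition was pooled over cultures before hybridization, so an SD or a test over its 3 arrays holds the error of the array measurement and none of the variation between cultures.

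A synaptic vesicle is filled with transmitter, tethered near the active zone, docked and primed, and fused when calcium enters the terminal. Vamp2 on the vesicle and Snap25 with syntaxin on the plasma membrane zipper into the SNARE complex that drives fusion, Syt1 is the fast calcium sensor of that step, Rab3a tethers vesicles, and the synapsins hold a reserve pool through actin. Syp is the most widely used vesicle membrane marker. Syt4 and Syt11 lack a calcium-binding residue of the first C2 domain of Syt1, and Syt4 is known on dense-core vesicles.

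Because the course of Syn1 and Syp differed from that of Syt11 in the arrays below, stretches upstream of their start sites are shown, together with the motifs that a search of promoter windows found. RefSeq sequences of build GRCm38.p6 gave 9 promoter windows of 300 bases for 6 of the 9 members (Syp, Syt1, Syt11, Syn1, Syn2 and Rab3a). Syt4, Snap25 and Vamp2 were not analysed here. Both strands were searched for RE1, the element bound by the neuronal gene repressor REST (TTCAGCACC and GGACAGCGC 2 bases apart, with at most 4 mismatches in all), for the CRE bound by CREB (TGACGTCA), for the GC box bound by Sp factors (GGGCGG) and for the word TATAAA. The lines give the 250 bases before the start, 5′ to 3′ in the direction of the gene, with matches in capitals.
Syn1, minus strand, chrX:20920919-20921168: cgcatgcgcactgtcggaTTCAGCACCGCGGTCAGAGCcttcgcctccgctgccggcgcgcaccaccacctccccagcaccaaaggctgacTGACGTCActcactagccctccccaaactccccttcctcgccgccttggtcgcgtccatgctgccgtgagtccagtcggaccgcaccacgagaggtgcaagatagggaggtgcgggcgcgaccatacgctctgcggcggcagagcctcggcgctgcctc
Syp, plus strand, chrX:7638330-7638579: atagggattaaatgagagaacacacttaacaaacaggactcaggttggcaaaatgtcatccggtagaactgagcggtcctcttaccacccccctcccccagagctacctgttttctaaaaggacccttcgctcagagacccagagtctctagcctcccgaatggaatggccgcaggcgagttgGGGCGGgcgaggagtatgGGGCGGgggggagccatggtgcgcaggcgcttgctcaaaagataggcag
Syt11, minus strand, chr3:88772600-88772849: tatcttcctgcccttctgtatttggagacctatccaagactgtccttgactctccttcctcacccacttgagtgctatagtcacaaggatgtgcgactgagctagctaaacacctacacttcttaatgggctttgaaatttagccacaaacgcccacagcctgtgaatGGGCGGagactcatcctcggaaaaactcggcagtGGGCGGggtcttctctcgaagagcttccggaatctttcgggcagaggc
In the Syn1 line the first capitals are an RE1 match with 2 mismatches, which begins 232 bases before the start, and the next are a CRE that begins 159 bases before it. The capitals in the Syp and Syt11 lines are GC boxes, which begin 67 and 49 bases before the start in Syp and 82 and 48 bases before it in Syt11. The Syn1 and Syp stretches adjoin the 5′ end of the annotated gene. The Syt11 stretch precedes a start inside the annotated gene, whose 5′ end is at position 88775159. Of 32851 mouse promoter windows, 0.481% held an RE1 match, 1.79% a CRE, 35.7% a GC box and 13.6% TATAAA. Among the 9 windows of members, 1 held an RE1 match, 1 a CRE, 5 a GC box and 0 TATAAA. The best RE1 alignments of the other 8 windows had 6 to 9 mismatches. Syp and Syt11, whose courses differed, held the same kind of motif, and Syp and Syn1 shared none of those searched. These are matches of letters and no measure of binding, and a link to the courses was not tested.

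The knockdown was visible on every array. Hprt1, the symbol of HPRT on the array, had a log2 signal of 12.04 ± 0.03 (SD, n = 3) in control and 7.95 ± 0.19 in knockdown ES cells. SNM cells read 11.20 ± 0.06 and 9.44 ± 0.09, and neuronal cells 11.05 ± 0.03 and 6.60 ± 0.04. The knockdown was thus weaker at the SNM stage (log2 fold change -1.76 ± 0.08, SE) than at the ES (-4.09 ± 0.08) and neuronal stages (-4.45 ± 0.08). Between 18827 and 22202 probes were detected per array, and arrays of a condition correlated at 0.992 to 0.997 across probes. None of the 18 arrays stood apart from the others of its condition by this measure.

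Signals are given below as log2 values after background correction and quantile normalization, for the brightest probe of each gene, and a change is called where the adjusted p from limma is under 0.05 and the fold is at least 1.5. Testing required detection on all 3 arrays of any condition that entered the comparison. During differentiation of control cells, 7 of the 8 members tested rose from the ES to the SNM stage, where 23.7% of all tested probes were called higher, and 6 of 8 rose again from the SNM to the neuronal stage (14.3% of all probes). From the ES to the neuronal stage all 8 rose (27.8% of all probes), with a median log2 change of 3.61 against -0.13 over all tested probes. Syt1 and Syn2 were detected on 0 of 3 arrays in either ES condition, and Syt11 on 1 of 3 control and 2 of 3 knockdown ES arrays. These members were tested against ES cells through the later stage alone, so the filter all but fixed their direction. They count in the medians as well. Knockdown cells followed another course. All 8 members rose from the ES to the SNM stage (26.4% of all probes), with a median of 3.17 against -0.11. From the SNM to the neuronal stage, however, 1 of 8 rose (13.8% of all probes), 3 fell (14.8% of all probes), and the median was 0.05 against -0.02. Their levels at the neuronal stage were still called above those of ES cells for 7 of 8 members (30% of all probes). Syn1 was higher as well, by 0.56 log2 units, short of 1.5-fold.

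**Figure D1:**
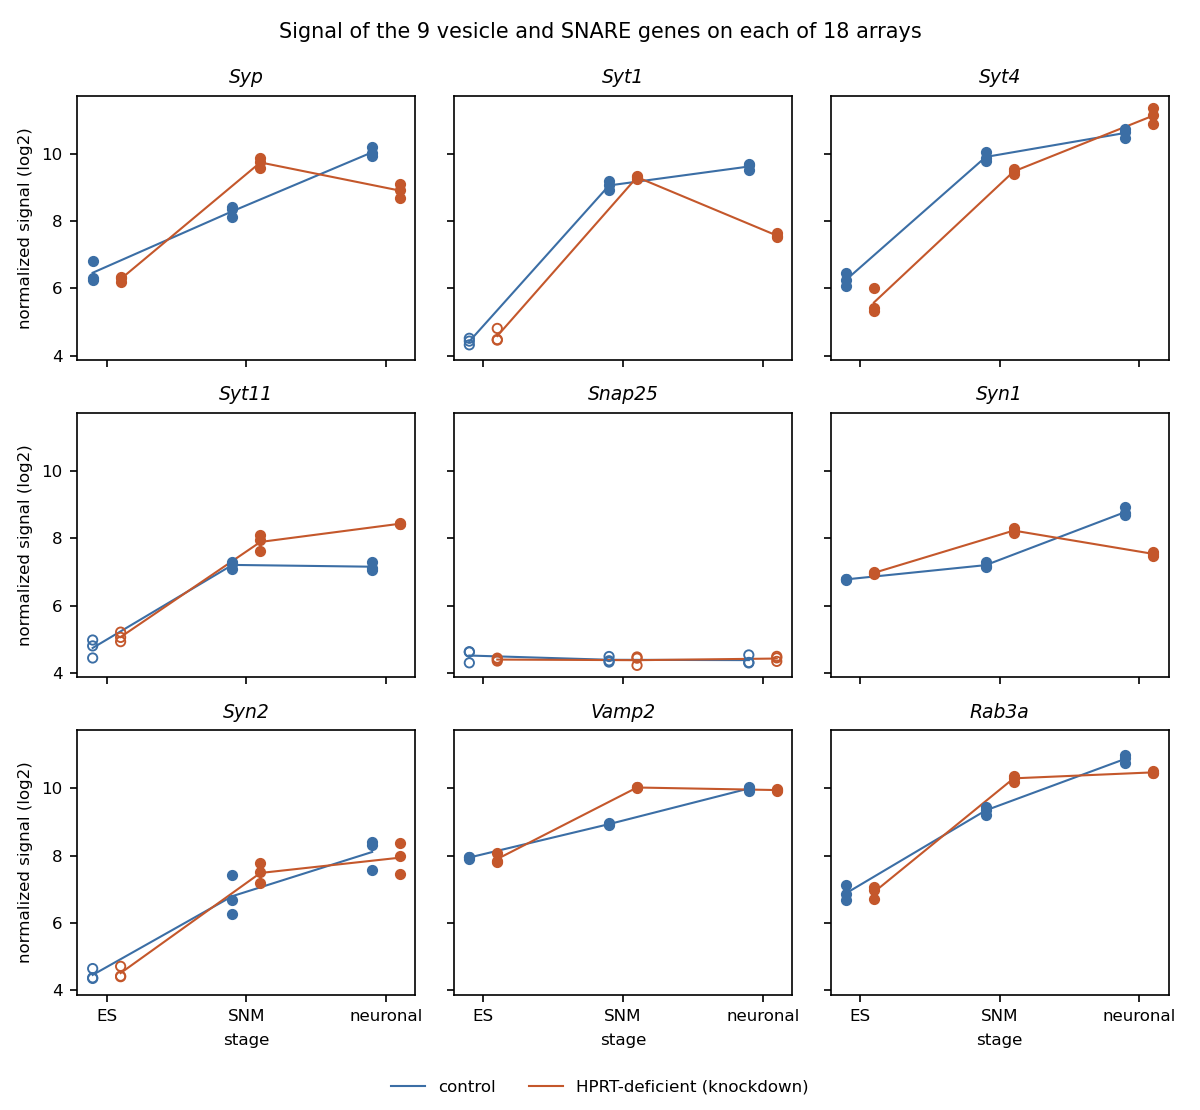
Each panel shows the log2 normalized signal of the brightest probe of a gene against the stage, with a point per array (3 per condition), filled where all 3 arrays of the condition detected the probe, and a line through the condition means. Control cells are blue and knockdown cells orange, and in the Syp, Syn1, Vamp2 and Rab3a panels the orange points lie above the blue at the SNM stage and level with or below them at the neuronal stage, while Snap25 stays between 4.23 and 4.64 throughout.

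Syp was the vesicle membrane protein followed here, by 1 probe that was detected on all 18 arrays. It read 6.25, 6.82 and 6.32 on the control ES arrays and 6.19, 6.30 and 6.34 on the knockdown ES arrays, which overlap. Control SNM arrays gave 8.40, 8.35 and 8.11, and knockdown SNM arrays 9.87, 9.76 and 9.58. The knockdown arrays were all higher at that stage, by 2.73-fold. In neuronal cells the values were 10.18, 10.01 and 9.92 in control and 9.10, 8.92 and 8.67 in knockdown, so that the order was turned and every knockdown array was lower, by 2.20-fold. Control cells gained 1.75 ± 0.14 log2 units (SE, adjusted p = 2.54e-08) from the SNM to the neuronal stage, and in knockdown cells the step was -0.84 ± 0.14 (adjusted p = 9.06e-05). The order of the 6 means was ES, control SNM, knockdown neuronal, knockdown SNM and control neuronal cells, and only the neighbouring ES conditions overlapped.

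The synapsins are the phosphoproteins that cross-link vesicles in the reserve pool. Syn1, whose upstream stretch holds the RE1 match printed above, was detected on all 18 arrays by both of its probes. Its arrays read 6.80, 6.78 and 6.77 in control ES cells, 6.98, 7.01 and 6.93 in knockdown ES cells, 7.30, 7.17 and 7.14 in control SNM cells and 8.32, 8.21 and 8.16 in knockdown SNM cells. Neuronal control cells gave 8.92, 8.74 and 8.68 and neuronal knockdown cells 7.60, 7.52 and 7.48. No array of a condition overlapped those of any neighbour in the order control ES, knockdown ES, control SNM, knockdown neuronal, knockdown SNM and control neuronal cells. Syn1 was 2.03-fold higher in knockdown than in control SNM cells (log2 fold change 1.02 ± 0.07, SE, adjusted p = 3.9e-09) and 2.37-fold lower at the neuronal stage (-1.24 ± 0.07, adjusted p = 1.32e-10). At the ES stage the difference was 0.19 ± 0.07 with an adjusted p of 0.0744. The other Syn1 probe gave 1.08 and -1.22 for the later stages. Within control cells Syn1 did not reach 1.5-fold from the ES to the SNM stage (0.42 ± 0.07, adjusted p = 2.62e-05) and rose by 1.58 ± 0.07 from there to neurons, while knockdown cells gained 1.25 ± 0.07 in the first step and changed by -0.69 ± 0.07 in the second. Knockdown neuronal cells stood 0.56 ± 0.07 above knockdown ES cells, short of 1.5-fold, where the other probe gave 0.90 and was called.

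Syn2 was below detection in both ES conditions and detected on all arrays thereafter. Its brightest probe read 6.26, 6.69 and 7.44 in control SNM cells and 7.18, 7.50 and 7.77 in knockdown SNM cells, and 7.58, 8.41 and 8.32 against 7.46, 7.99 and 8.36 in neuronal cells. The conditions overlapped at both stages, and the arrays of a condition were more spread than for any other member, with SDs of 0.59, 0.29, 0.45 and 0.45 in these 4 conditions. Neither knockdown comparison was called (0.69 ± 0.28, adjusted p = 0.0527 in SNM cells, and -0.17 ± 0.28, adjusted p = 0.639 in neuronal cells). With the array number as a replicate block, which pairs arrays of equal number, the SNM difference was called (adjusted p = 0.00491), and so it was without control SNM array 3 (1.01, adjusted p = 0.00584) or without knockdown SNM array 1 (0.84, adjusted p = 0.0403). Relative to the lowest signals detected on the ES arrays, Syn2 was at least 3.81-fold higher in control SNM cells (adjusted p = 1.44e-06), at least 5.86-fold higher in knockdown SNM cells (adjusted p = 6.47e-08), and at least 9.44-fold and 8.03-fold higher in control and knockdown neuronal cells. Of the other probes of Syn2, 1 was detected on 1 array and 1 on 0 of 18 arrays.

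Of the synaptotagmins, Syt1 had the largest knockdown effect of all members at the neuronal stage. It was below detection on all 6 ES arrays (4.43 ± 0.10 in control and 4.59 ± 0.20 in knockdown, SD). In SNM cells it read 8.92, 9.05 and 9.19 in control and 9.26, 9.30 and 9.35 in knockdown, which did not overlap but differed by 0.25 ± 0.09 (adjusted p = 0.0336), short of 1.5-fold. Neuronal control arrays gave 9.51, 9.68 and 9.66, and neuronal knockdown arrays 7.52, 7.55 and 7.64. Every knockdown array was thus below every control array, by 4.13-fold (-2.05 ± 0.09, adjusted p = 1.35e-11). In knockdown cells the change from the SNM stage was -1.73 ± 0.09 (adjusted p = 1.33e-10), while control cells differed by 0.56 ± 0.09 in the other direction, which passed 1.5-fold without control SNM array 3 or control neuronal array 1. The second probe gave -1.75 ± 0.18 for the neuronal and -0.04 ± 0.18 for the SNM knockdown comparison, and the third, detected on 6 arrays, was not tested. Against the lowest detected signals of the ES arrays, Syt1 was at least 18.2-fold higher in control SNM cells, at least 20.6-fold higher in knockdown SNM cells, and at least 26.9-fold and 6.22-fold higher in control and knockdown neuronal cells.

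Syt4 and Syt11 went the other way from Syt1 in neuronal cells. Syt11 was detected on 1 of 3 control and 2 of 3 knockdown ES arrays, and on all later arrays. It read 7.24, 7.29 and 7.10 in control SNM, 7.95, 7.64 and 8.08 in knockdown SNM, 7.05, 7.13 and 7.29 in control neuronal and 8.42, 8.45 and 8.42 in knockdown neuronal cells. The knockdown arrays were above the control arrays at both stages, by 1.60-fold in SNM cells (0.68 ± 0.13, adjusted p = 0.000326) and 2.42-fold in neuronal cells (1.27 ± 0.13, adjusted p = 3.05e-07). The second probe gave 1.72-fold and 2.82-fold, both called. The SNM call was lost without knockdown SNM array 3 (0.58) and under the normalizations without background correction or with an offset of 50 (0.52 to 0.58), where the fold was just under 1.5. Control SNM and control neuronal cells overlapped in Syt11 (-0.05 ± 0.13, adjusted p = 0.736). In knockdown cells Syt11 changed by 0.54 ± 0.13 (adjusted p = 0.00168) from the SNM to the neuronal stage, short of 1.5-fold. The second probe gave 0.63 ± 0.16 (adjusted p = 0.00262) for that step and was called.

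Syt4 rose from 6.07, 6.24 and 6.45 in control ES cells to 9.77, 9.87 and 10.05 in control SNM and 10.47, 10.72 and 10.65 in control neuronal cells. Knockdown cells gave 5.33, 6.01 and 5.41 as ES cells, 9.49, 9.53 and 9.38 as SNM and 10.88, 11.14 and 11.36 as neuronal cells. They were below control cells at the first 2 stages and above them at the third, with no overlap at any stage. The ES difference was the only call of a member at that stage, where 5 of 9 members could be tested and 1.17% of all tested probes were called lower. It amounted to -0.67 ± 0.16 (1.59-fold lower, adjusted p = 0.0137) and was lost without control ES array 3 (-0.57), without knockdown ES array 1 (-0.54) and without knockdown ES array 3 (-0.58). The SNM and neuronal differences were short of 1.5-fold (-0.43 ± 0.16, adjusted p = 0.0332, and 0.51 ± 0.16, adjusted p = 0.0115), and the neuronal difference passed without knockdown neuronal array 1 (0.64). From the ES to the neuronal stage Syt4 rose by 4.36 ± 0.16 in control and by 5.54 ± 0.16 in knockdown cells. Its second probe was detected on 0 of 18 arrays.

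Vamp2, the vesicle SNARE, was detected on all 18 arrays by its 1 probe. It read 7.91, 7.96 and 7.96 in control ES, 8.07, 7.80 and 7.83 in knockdown ES, 8.96, 8.91 and 8.93 in control SNM and 10.020, 10.003 and 10.031 in knockdown SNM cells. The SNM arrays of knockdown cells were all higher, by 2.12-fold (1.09 ± 0.06, adjusted p = 9.02e-10). Neuronal arrays gave 10.04, 9.91 and 10.01 in control and 9.93, 9.92 and 9.98 in knockdown cells, which overlapped each other and, for control cells, the knockdown SNM arrays. In control cells Vamp2 rose by 0.99 ± 0.06 in the first step and 1.06 ± 0.06 in the second, and in knockdown cells by 2.12 ± 0.06 in the first step with -0.08 ± 0.06 (adjusted p = 0.309) in the second. The knockdown difference was -0.04 ± 0.06 (adjusted p = 0.716) in ES cells and -0.05 ± 0.06 (adjusted p = 0.553) in neuronal cells.

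Snap25, the plasma membrane SNARE, was not detected on any of the 18 arrays by either of its probes. The brighter probe had raw signals of 56.0 to 75.2 with detection p-values of 0.122 to 0.937, and the other 49.0 to 65.6 with 0.546 to 0.996. Its log2 signals lay between 4.23 and 4.64 on single arrays, below the lowest signal detected on any array (4.67 to 4.99). No comparison of Snap25 was made, and the values give only that its level was not well above background with these probes.

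Rab3a, the vesicle GTPase, was detected on all 18 arrays by both of its probes. The brighter probe read 7.12, 6.68 and 6.85 in control ES and 7.06, 6.70 and 6.98 in knockdown ES cells, 9.36, 9.45 and 9.21 in control SNM and 10.37, 10.31 and 10.19 in knockdown SNM cells, and 10.97, 10.75 and 10.89 in control neuronal and 10.44, 10.51 and 10.46 in knockdown neuronal cells. The ES arrays overlapped, the knockdown SNM arrays were above control, and the knockdown neuronal arrays below. Rab3a was 1.93-fold higher in knockdown SNM cells (0.95 ± 0.11, adjusted p = 2.46e-06), and its neuronal difference of -0.40 ± 0.11 (adjusted p = 0.00486) was short of 1.5-fold. The other probe gave 0.56 ± 0.12 in SNM cells, just under 1.5-fold and so not called, and -0.39 ± 0.12 in neuronal cells.

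Set side by side, the knockdown comparisons differed between the stages. The lowering of Hprt1 differed as well and was least at the SNM stage, and its part in the differences was not tested. In SNM cells 5 of 8 members tested were above control with the knockdown (Syp, Syt11, Syn1, Vamp2 and Rab3a) and 0 lower, where 11% of all tested probes were called higher, and the median log2 fold change of the members was 0.82 against -0.04 over all probes. At the neuronal stage 3 were lower (Syp, Syt1 and Syn1) and 1 higher (Syt11), where 13.5% of all probes were called lower and 13.9% higher, with a median of -0.29 against 0.01. The members were chosen with earlier results of these data known, so the shares of all probes are a reference and no test. A member also counts by its brightest probe alone, while the shares count every tested probe. The comparisons share no arrays, and a contrast of that model gave the change of the effect from stage to stage. From the SNM to the neuronal stage the effect fell for 5 of 8 members (14.8% of all probes) and rose for 2 (13.7%). The change was -2.58 ± 0.20 for Syp, -2.29 ± 0.13 for Syt1, -2.27 ± 0.09 for Syn1, -1.35 ± 0.15 for Rab3a and -1.13 ± 0.09 for Vamp2 (SE, adjusted p between 9.67e-12 and 2.3e-06). It rose by 0.94 ± 0.23 for Syt4 (adjusted p = 0.00263) and by 0.59 ± 0.18 for Syt11 (adjusted p = 0.013). The Syt11 change was close to 1.5-fold and dropped under it without control SNM array 1 or 2, knockdown SNM array 2 or control neuronal array 1 or 2 (0.47 to 0.58), and under the normalizations without background correction or with an offset of 50 (0.50 to 0.53). Syn2, with -0.86 ± 0.40 (adjusted p = 0.093), was called with the replicate block (adjusted p = 0.0121) and without control SNM array 3 (-1.18), control neuronal array 1 (-1.12) or knockdown neuronal array 3 (-1.07).

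From the ES to the SNM stage the effect rose for 4 of 8 members, Syp, Syn1, Vamp2 and Rab3a (11.7% of all probes). The second probe of Rab3a gave 0.47 ± 0.16 (adjusted p = 0.0314), short of 1.5-fold and so not called. The second probe of Syt11 was called (0.73 ± 0.22, adjusted p = 0.016) where its brightest was not (0.36 ± 0.18, adjusted p = 0.13). From the ES to the neuronal stage the effect rose for Syt4 and Syt11 (13.6% of all probes) and fell for Syp, Syt1 and Syn1 (13%). The brightest probes of Syt1 and Syt11 lacked the detection needed for a test at the ES stage. Their ES effect is near background.

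**Figure D2:**
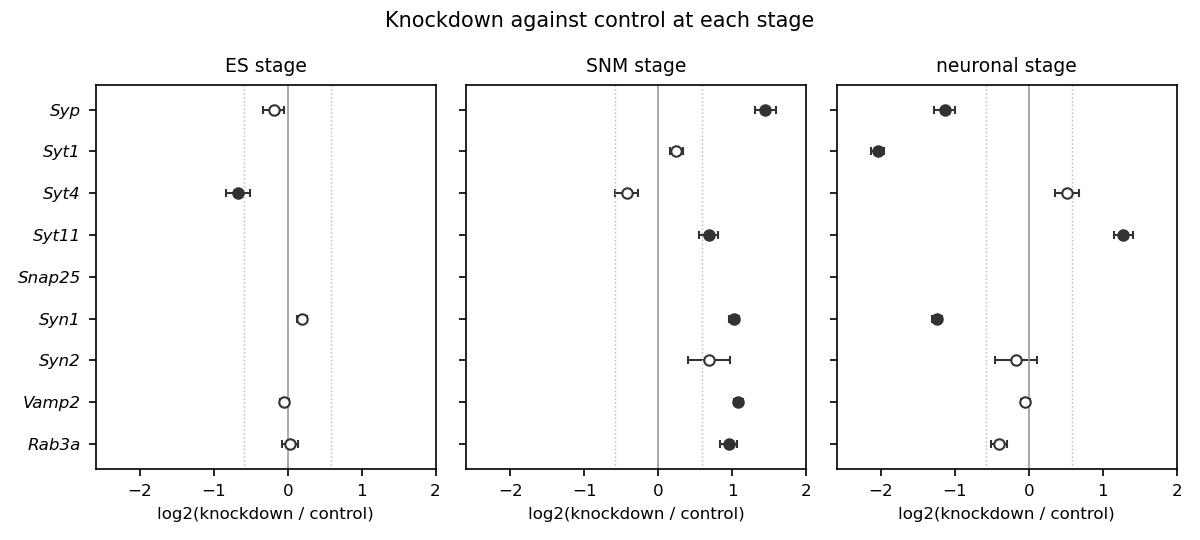
Points give the log2 ratio of knockdown over control signal for each member tested, in 1 panel per stage, with bars of 1 SE from the limma model of all 18 arrays, filled where called, and dotted lines at 1.5-fold. Most points lie to the right of 0 at the SNM stage, and Syp, Syt1 and Syn1 lie to the left at the neuronal stage with Syt11 to the right.

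Other genes of the vesicle cycle were read from 7 lists with 120 genes on the array. Knockdown SNM cells had 23 of 87 tested genes higher and 1 lower than control, with a median of 0.30, where 11% of all tested probes were called higher and 8.9% lower. Knockdown neuronal cells had 15 of 90 higher and 18 lower, with a median of -0.04, close to the 13.9% and 13.5% of all tested probes called higher and lower. Knockdown ES cells had 0 of 69 higher and 1 lower (0.516% and 1.17% of all probes). The change of the effect from the SNM to the neuronal stage was called for 8 upward and 34 downward of 91 (13.7% and 14.8% of all probes). The counts by list below are small, and each is to be read against these shares of all probes. A listed gene counts by its brightest probe alone, while the shares count every tested probe.

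By role, the vesicle membrane proteins, transmitter transporters and the third synapsin had 6 of 14 higher and 1 lower at the SNM stage, and 5 higher and 6 lower of 15 in neuronal cells. The vesicular glutamate transporter Slc17a6 read 9.62 ± 0.10 in control and 5.88 ± 0.11 in knockdown neuronal cells (-3.74 ± 0.12, SE, adjusted p = 1.51e-13), and the vesicular GABA and glycine transporter Slc32a1 9.57 ± 0.06 and 6.42 ± 0.06 (-3.15 ± 0.14, adjusted p = 1.44e-11). Sypl2, a synaptophysin relative of skeletal muscle, read 9.82 ± 0.03 in control neuronal cells and was detected on 0 knockdown arrays, at least 33.7-fold lower. Syngr1, a vesicle membrane protein, was the 1 gene of all lists lower in knockdown SNM cells (-0.61 ± 0.11, adjusted p = 0.000256). Partners of the SNARE complex and regulators of fusion had 3 of 15 higher in SNM cells and 5 of 14 lower with 0 higher in neuronal cells (Stx1a, Cplx2, Nsf, Napb and Snph). Among them Snph, a syntaxin-binding protein that anchors axonal mitochondria, rose most at the SNM stage, from 4.79 ± 0.15 with 2 of 3 arrays detected to 6.70 ± 0.11 (1.91 ± 0.15, adjusted p = 2.93e-08).

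Active zone and priming genes had 2 of 5 higher at the SNM stage and 4 of 6 lower with 0 higher in neuronal cells. Cadps, the priming factor of dense-core vesicles, was in both counts and read 7.11 ± 0.13 and 8.60 ± 0.03 in control and knockdown SNM cells (1.49 ± 0.08, adjusted p = 4.46e-10). Endocytosis and recycling genes had 5 of 13 higher at the SNM stage, and 2 higher and 3 lower in neuronal cells, where the endophilin Sh3gl3 was 2.15 ± 0.10 higher (adjusted p = 2.61e-11). The Rab3 and Rab27 genes had 1 of 8 higher at the SNM stage, near the 11% of all probes, and 3 of 10 higher with 0 lower in neuronal cells (13.9% of all probes higher), led by Rab3d with 8.28 ± 0.06 in control and 10.13 ± 0.09 in knockdown (1.85 ± 0.08, adjusted p = 5.01e-12). SNAREs and SNARE regulators of other membranes had 4 of 26 higher in SNM cells and 5 of 26 higher with 0 lower in neuronal cells, near the 11% and 13.9% of all probes called higher. Of these, Vamp5, a VAMP known from muscle, was detected on 0 control and 3 knockdown SNM arrays, at least 2.41-fold higher, and Stxbp2 was 1.48 ± 0.10 higher in knockdown neuronal cells (adjusted p = 3.58e-09). Stxbp3a was the 1 call at the ES stage (-0.64 ± 0.13, adjusted p = 0.004). The other synaptotagmins and their C2 domain relatives had 2 of 6 higher in SNM cells and 0 of 6 called in neuronal cells, and 12 of 18 were detected on 0 control SNM arrays.

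**Figure D3:**
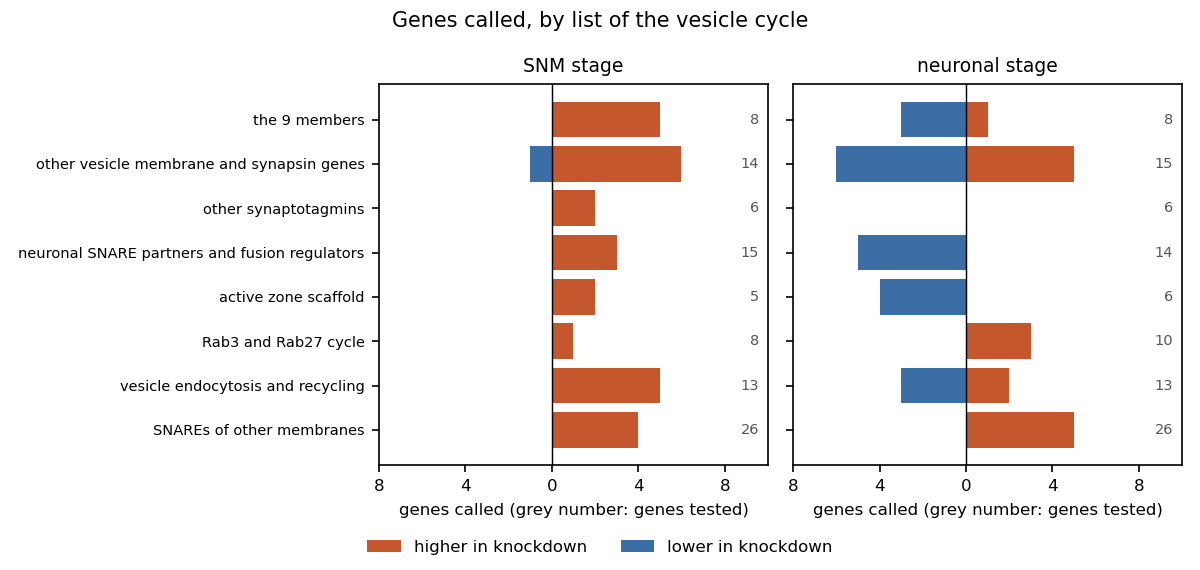
Bars count the genes of each list called higher (orange, to the right) or lower (blue, to the left) in knockdown than in control cells, at the SNM and the neuronal stage, with the number tested in grey. The bars run almost wholly to the right at the SNM stage, and to the left for the SNARE partner and active zone lists at the neuronal stage.

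The cultures hold several cell types, and fewer cells of a type and less RNA per cell cannot be told apart in pooled RNA. Neuron markers were 15 genes on the array, of which Nefl and L1cam were detected on 0 arrays of any condition. Their summed signal was 9173 to 10210 in control and 8404 to 9572 in knockdown SNM cells, with 2 of 13 tested higher and 3 lower, and 13900 to 15330 against 7347 to 8442 in neuronal cells, with 0 of 13 higher and 8 lower. Tubb3, the neuronal tubulin, was detected on 3 control and 0 knockdown neuronal arrays, both near background (5.06 and 4.56). Stmn2 read 12.01 in control and 8.94 in knockdown neuronal cells. The summed signal of the 9 members was 3117 to 3324 and 4952 to 5217 in control and knockdown SNM cells, and 7015 to 7071 and 5566 to 6380 in neuronal cells.

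Markers of other cell types differed as well, with median log2 fold changes at the neuronal stage of 4.68 for oligodendrocyte, -7.20 for skeletal muscle and -1.92 for pluripotency markers, against -1.10 for neuron markers. Astrocyte, fibroblast and dense-core vesicle markers had smaller medians of 0.59, -0.77 and 0.46. All 13 oligodendrocyte markers were higher in knockdown neuronal cells, with a summed signal of 78130 to 83510 against 10310 to 10590 in control, whereas 8 of 12 were lower in knockdown SNM cells (11220 to 12120 against 14800 to 15640). Of 12 skeletal muscle markers, 11 were lower in knockdown neuronal cells, where the sum was 235.6 to 364.6 against 83790 to 85140 in control and where Tnnt3, Myod1, Myog, Ckm and Chrna1 were detected on 0 arrays. In SNM cells 9 of 11 muscle markers tested were higher with the knockdown (3092 to 3323 against 1514 to 1570). Astrocyte and radial glia markers had 7 of 12 higher at the SNM stage, and 6 higher and 2 lower in neuronal cells. Neuroendocrine and dense-core vesicle markers had 6 of 10 higher at the SNM stage (11190 to 13050 against 4698 to 5112), and 3 higher and 4 lower in neuronal cells (9699 to 11190 against 7018 to 7709), with Pcsk1 and Ptprn2 detected on 0 arrays of either. Fibroblast and feeder markers had 10 of 12 lower in knockdown neuronal cells, and pluripotency markers 8 of 10 (1208 to 1286 against 4674 to 4896). The part of these cell types in the values of the vesicle genes was not tested.

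**Figure D4:**
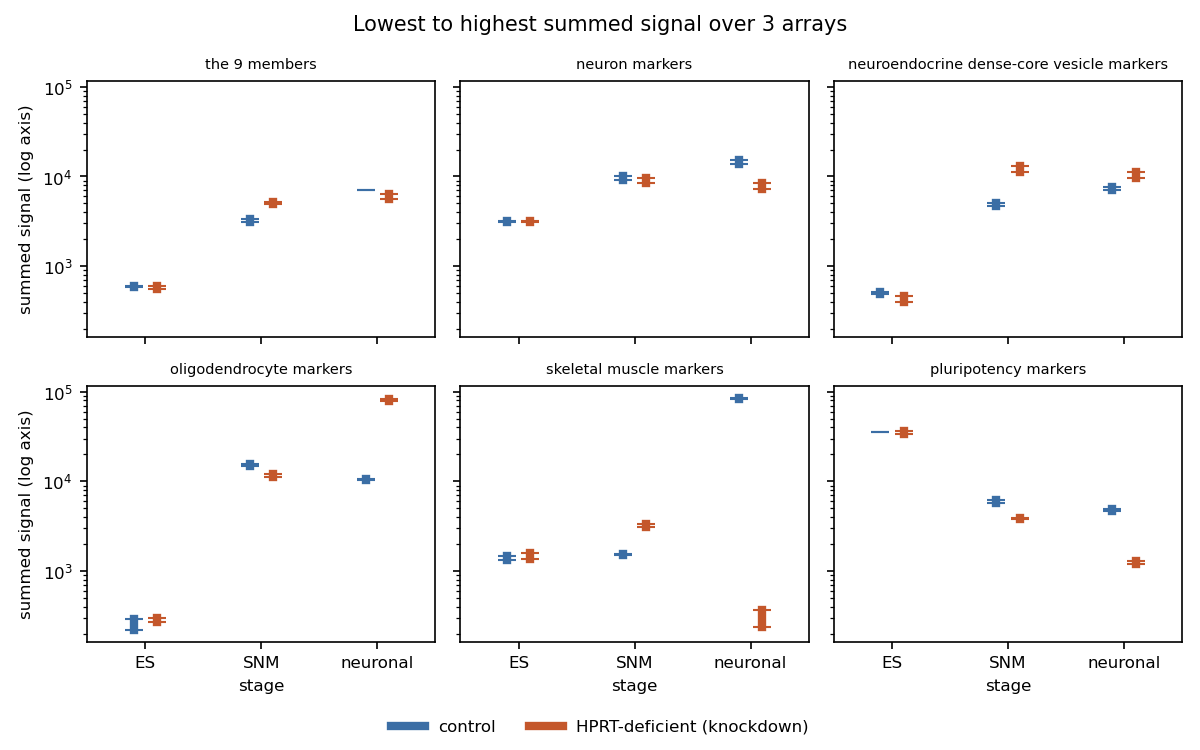
Vertical bars run from the lowest to the highest of 3 arrays for the summed normalized signal of each list, on a log axis, by stage, with control in blue and knockdown in orange. The oligodendrocyte and muscle markers part widely and in opposite directions at the neuronal stage.

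Over the 6 condition means, the 28 pairs among the 8 detected members correlated at 0.62 to 1.00 (Pearson's r, median 0.92), with Syt11 and Syn1 the least alike and Syn2 and Rab3a the most. All 8 share the step from ES cells to later stages, so high values follow from few points. The same measure was taken against 12866 probes that were detected in a condition and ranged over at least 1 log2 unit. The closest were Nfib, Egfr and Papss2 for Syp, Dpysl5, Sema3f and Cugbp2 for Syt1, H2-T10, LOC100044190 and Adamts1 for Syt4, and Zfp28, Mid1ip1 and LOC381904 for Syt11. They were 4933421H10Rik, Npr3 and Lrfn2 for Syn1, BC018242, Trafd1 and Gprc5b for Syn2, Mapre3, Nod1 and Scara5 for Vamp2, and Klc1, Gprc5b and Darc for Rab3a. These r were at least 0.9896 over 6 means and are a description of likeness in these arrays.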

How the data were processed

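The 18 arrays came as a signal table and an annotation table. The authors deposited signal intensities without normalization, each the average over beads from Illumina's BeadArray software, with a detection p-value per probe and array, also as deposited. From the annotation table, gene symbols and RefSeq accessions were taken, the latter to match members to RefSeq genes, and 72 per-sample columns of it, named by chip and position, were not used because the labels do not pair them with samples. The genome build behind the annotation is not given in the sources used here. Conditions and array numbers came from sample titles.

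Background correction, quantile normalization and log2 transformation were done by limma's neqc (limma 3.58.1, R 4.3.3, offset 16, background estimated through the detection p-values). A linear model with 6 condition means was fitted over all 18 arrays with empirical Bayes moderation, and 12 contrasts were taken. Probes entered a contrast when any condition in it had detection p-values under 0.05 on its 3 arrays. Calls required a Benjamini-Hochberg adjusted p under 0.05 over all tested probes and 1.5-fold; tests were two-sided. The number of arrays limits the precision, and an exact permutation test of 3 against 3 arrays cannot go below p = 0.1. A group with 0 arrays detected gave a bound against the lowest detected signal of each array. A gene was read from its brightest probe over all arrays. The fit was tested on simulated data for the SNM comparison, where 94 of 100 probes changed by 1 log2 unit and 100 of 100 changed by 2 were called. In the simulation noise was independent between arrays, and changes were planted in probes detected on all control SNM arrays. It therefore leaves out variation shared by arrays of equal number and probes below detection in control cells.

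In 3 of the 9 comparisons of conditions, every correlation of deviations from condition means between arrays of equal number was over 0.1. These were 0.49, 0.11 and 0.49 between knockdown and control SNM arrays, 0.52, 0.14 and 0.51 between neuronal and SNM knockdown arrays and 0.41, 0.11 and 0.34 between neuronal and ES knockdown arrays. In the other 6 comparisons at least 1 value was lower, though single values were as high. Knockdown and control neuronal arrays gave 0.61, 0.09 and 0.32, and neuronal and SNM control arrays 0.60, -0.12 and 0.34. SNM and ES arrays gave 0.31, 0.06 and 0.22 in knockdown and -0.11, 0.18 and 0.08 in control cells. Knockdown and control ES arrays gave -0.09, 0.03 and 0.10, and neuronal and ES control arrays -0.16, -0.07 and 0.09. The number as a block was an alternative, as were other normalizations, offset, filter, fold and probe rules, the compared arrays alone, each array left out, and the methods' t-test. Members and gene lists were chosen with earlier results of these data known. Named were all members, Hprt1, the 3 largest rises and falls among called genes of the 7 vesicle lists at each stage, the 3 closest patterns per member, and a few markers, of which Stmn2 and Tubb3 were picked after their values were seen. Promoter windows and their motifs were read with Python 3.11.15.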

Additional observations from a re-analysis of the deposited data

Results flagged for a closer look

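The results below were marked because the knockdown effect on a member differed between stages by a test of the difference itself, in the limma model of all 18 arrays. Values are log2 differences of the knockdown effect with their SE.

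From the ES to the SNM stage the effect rose by 1.63 ± 0.20 for Syp (adjusted p = 1.02e-05), by 0.83 ± 0.09 for Syn1 (4.47e-06), by 1.13 ± 0.09 for Vamp2 (7.8e-08) and by 0.92 ± 0.15 for Rab3a (0.000208). The second probe of Rab3a gave 0.47 ± 0.16 and was not called. From the SNM to the neuronal stage the effect changed by -2.58 ± 0.20 for Syp, -2.29 ± 0.13 for Syt1, -2.27 ± 0.09 for Syn1, -1.13 ± 0.09 for Vamp2, -1.35 ± 0.15 for Rab3a, 0.94 ± 0.23 for Syt4 and 0.59 ± 0.18 for Syt11. From the ES to the neuronal stage it changed by -0.95 ± 0.20 for Syp (adjusted p = 0.00106), -2.21 ± 0.13 for Syt1 (9.47e-10), -1.44 ± 0.09 for Syn1 (3.74e-09), 1.18 ± 0.23 for Syt4 (0.000447) and 0.95 ± 0.18 for Syt11 (0.000431). Syt1 was detected on 0 of 3 arrays in either ES condition and Syt11 on 1 of 3 control and 2 of 3 knockdown arrays. Their ES effect was thus not tested and lies near background, so these changes rest on the neuronal stage.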

How the results depend on the processing

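Counts of members called stayed within 1.5 times in 118 of 132 values under other processing and in 87 of 90 with an array left out. The exceptions were these. The call of Syt4 at the ES stage was lost (0 members called) with quantile normalization or 75th percentile scaling without background correction, an offset of 50, a 2-fold threshold, the ES arrays alone, the mean over all probes, and the methods' t-test, unpaired or paired, before and after Benjamini-Hochberg adjustment. With an array left out the ES count ranged from 0 to 1. At least 2-fold left 3 members higher at the SNM stage, 2 changed between knockdown SNM and neuronal cells, and 2 and 3 with a changed effect from the ES to the SNM and to the neuronal stage. By construction, a higher fold threshold can only remove calls. For other losses the cause was not tested.

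The array number as a replicate block gave 6 members in place of 5 at the SNM stage and 8 in place of 7 for the change to the neuronal stage, each time adding Syn2, and changed no other call of a member. The methods' t-test at its own threshold called 5 (unpaired) and 4 (paired) members in SNM cells and 4 and 4 in neuronal cells, with the same counts after Benjamini-Hochberg adjustment. The share of all probes called by that t-test was not taken, so these counts lack a reference.

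Differences close to 0 changed sign. For Syn2 at the neuronal stage, the mean over all probes gave 0.0313 and leaving out an array -0.43 to 0.0707. Vamp2 gave 0.0119 there with 75th percentile scaling. With an array left out at the ES stage, Vamp2 gave -0.13 to 0.0054 and Rab3a -0.0703 to 0.15. Across all probes, quantile normalization without background correction called 57, 2326 and 3690 for the knockdown at the 3 stages in place of 310, 4127 and 5732. In stage comparisons, 75th percentile scaling moved the median of all probes at most from -0.13 to -0.24. Signal over background limits Snap25, Syt1 and Syn2 at the ES stage to bounds.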
